A study of Mus musculus with 6 samples.

Results

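Prostaglandin and lipoxygenase pathway genes were examined in primary mouse neurons in which *Pla2g4e* had been knocked down. The set comprised 10 genes, given by name: the cyclooxygenases *Ptgs1* and *Ptgs2*, the prostaglandin synthases *Ptges*, *Ptges2*, *Ptges3* and *Ptgds*, the prostaglandin receptor *Ptger4*, the prostaglandin-degrading enzyme *Hpgd*, and the lipoxygenases *Alox5* and *Alox12b*. All 10 were found among the 55357 genes of the deposited count tables. All 10 also reached 6 reads in at least 1 library, as did 21876 genes in all, and these were tested. *Alox5* and *Alox12b* averaged under 10 reads per library in both groups and were taken as too low to judge.

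The data were 6 RNA-seq libraries of wild type primary neurons, cultured from the cortex and hippocampus of C57BL/6N embryos at E18. A group of 3 libraries came from cultures that received, at DIV4, a lentivirus with a scrambled shRNA (shCtrl), and the other 3 from cultures that received one with an shRNA against *Pla2g4e* (sh*Pla2g4e*), with collection at DIV14 in both groups. Virus was given at a dose set for a partial knockdown, equal in both groups, and only 1 hairpin sequence was used for each group, so that an effect of that hairpin on other transcripts and an effect of losing *Pla2g4e* cannot be told apart. The labels number the libraries 1 to 3 in each group without saying whether these were separate cultures, so that p-values measure the spread between these libraries.

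Between 17054717 and 23570180 reads were counted per library. Levels are given as CPM, the read count scaled to the size of its library with TMM factors, and a single read was worth 0.0418 to 0.0571 CPM. The targeted gene *Pla2g4e*, an N-acyltransferase of the cytosolic phospholipase A2 family, stood at 38.0, 35.1 and 35.4 CPM under shCtrl, and at 21.8, 14.1 and 18.7 CPM under the knockdown hairpin (log2 fold change −0.99, SE 0.13, edgeR adjusted p = 1.24e-04). The libraries therefore matched their labels. All 8 pan-neuronal markers on the list used here were tested, with a summed level of 5611 to 6169 CPM in shCtrl and 5170 to 5643 CPM in sh*Pla2g4e*.

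Prostaglandins and leukotrienes are lipid messengers made from arachidonic acid, which phospholipases release from membranes. Cyclooxygenases turn arachidonic acid into prostaglandin H2, from which separate synthases make prostaglandin E2, prostaglandin D2 and other products, while lipoxygenases open the path to leukotrienes and hydroxy fatty acids. The messengers act on receptors at the cell surface and are inactivated by oxidation. In forebrain neurons, *Ptgs2* is known as a gene that synaptic activity induces.

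*Ptgs2* and *Hpgd* rose in the sh*Pla2g4e* libraries, to 5.23 and 4.44 times the shCtrl mean, and these were the only members of the 10 past the threshold of an adjusted p of 0.01. None fell past it. Over all genes tested, 2.48% were called higher, 4.00% lower and 6.49% in either direction. Leaving out the 2 members too low to judge, of which *Alox12b* reached 6 reads in sh*Pla2g4e* libraries alone, the median log2 fold change of the other 8 was 0.51, against 0.03 over all genes tested. Of these 8, 7 had a positive value and 1, *Ptges2*, a negative value, where 53.5% of all genes tested were positive. The values over all genes tested were not limited in the same way and include genes too low to judge. The 3 libraries of one group lay wholly above those of the other for 5 of the 8, of which 4 were higher in sh*Pla2g4e* (*Ptgs2*, *Hpgd*, *Ptges* and *Ptges3*) and 1 was lower (*Ptges2*), where 30.0% of all genes tested had groups that did not overlap. The test above took no account of the library numbers. Libraries that share a number deviated from their group means in like ways, though less so for number 2. With the numbers as a replicate block the same 2 members were called, while the share of all genes called went up to 15.5%. The summed level of the 10 members was 113 to 118 CPM in the shCtrl libraries and 146 to 192 CPM in the sh*Pla2g4e* libraries. Within these sums *Ptgs2* alone held 6.44 to 14.4 CPM and 36.1 to 74.7 CPM, so that the rise of the sum was mostly that of *Ptgs2*.

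**Figure D1:**
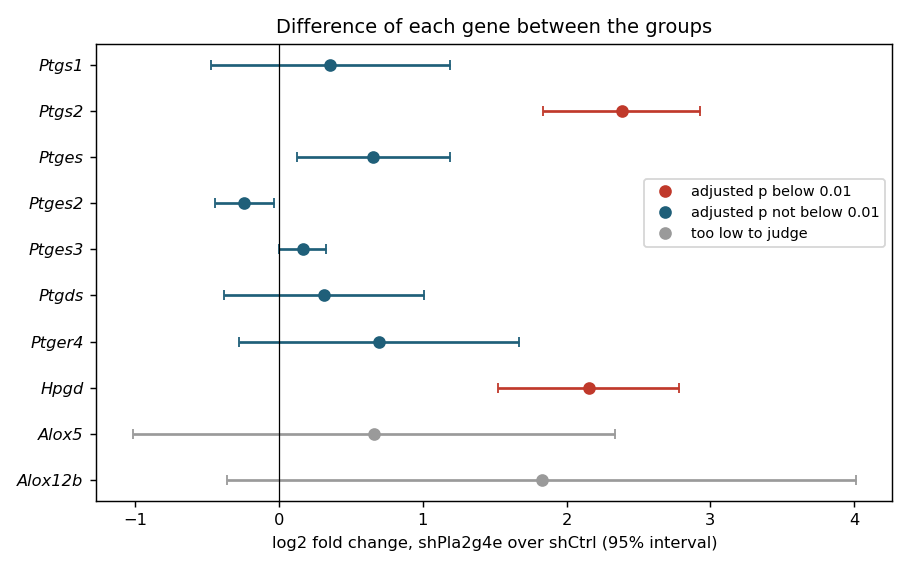
The log2 fold change of sh*Pla2g4e* over shCtrl (x axis) is shown for the 10 members, from edgeR over 3 libraries per group, with bars for the 95% interval. *Ptgs2* at 2.38 and *Hpgd* at 2.15 lie apart from 0, and the intervals of the lowly counted *Alox5* and *Alox12b* are the widest.

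The cyclooxygenases came first in the pathway. *Ptgs2* (ENSMUSG00000032487.9) encodes the inducible enzyme COX-2 and lies on the plus strand of chromosome 1 at 149975782 to 149983978 in GRCm39. Its promoter is shown because *Ptgs2* had the smallest p among the members. The 300 bases, around the first base of the transcript in RefSeq, are chr1:150099781-150100080 of GRCm38.p6, plus strand, with matches to the motifs searched in capitals:
Ptgs2 promoter: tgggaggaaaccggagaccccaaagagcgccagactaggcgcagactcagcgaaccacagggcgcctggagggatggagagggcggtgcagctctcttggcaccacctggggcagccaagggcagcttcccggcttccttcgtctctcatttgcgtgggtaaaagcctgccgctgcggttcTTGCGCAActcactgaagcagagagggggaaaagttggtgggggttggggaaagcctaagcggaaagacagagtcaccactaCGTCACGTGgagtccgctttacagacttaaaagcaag

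The capitals hold a match to the C/EBP motif TTGCGCAA, which begins 69 bases before the annotated start, and an E-box, CACGTG, which begins 16 bases after it. The E-box overlaps a half-site of the cAMP response element, TGACG, read on the opposite strand and beginning 13 bases after the start. Both strands were searched for these motifs and for the full element TGACGTCA, the AP-1 motif TGANTCA and the TATA box TATAAA. Of 32851 mouse promoter windows of this length, 0.183% held the C/EBP motif, 7.15% the E-box, 20.8% the half-site, 1.79% the full element, 7.81% the AP-1 motif and 13.6% the TATA box. The *Ptgs2* window was 59.3% G and C, where the median window was 52.7%. A match is a run of letters and was not tested as a binding site.

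*Ptgs2* counted 278, 128 and 325 reads in the shCtrl libraries, or 13.5, 6.44 and 14.4 CPM. In the sh*Pla2g4e* libraries it counted 1787, 1486 and 632 reads, or 74.7, 68.7 and 36.1 CPM. Every sh*Pla2g4e* library was above every shCtrl library, replicate 3 being the lowest of its group and replicate 2 the lowest of the shCtrl group. The means were 11.5 ± 4.36 CPM and 59.9 ± 20.8 CPM (SD, n = 3 each). The log2 fold change was 2.38 (SE 0.26, 95% interval 1.84 to 2.93), with an edgeR adjusted p of 1.73e-05, and *Ptgs2* ranked 113th by p among all genes tested. The ratio within the numbered pairs varied, at 5.54, 10.7 and 2.50. With the robust fit of edgeR the adjusted p was 0.0415, which misses the threshold, and leaving out any 1 library gave log2 fold changes of 2.10 to 2.64 with adjusted p-values from 1.05e-08 to 1.26e-04. No exon base of *Ptgs2* overlapped another gene.

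*Ptgs1* encodes the constitutive enzyme COX-1 and was far less abundant. Its reads were 21, 15 and 26 in shCtrl and 40, 19 and 21 in sh*Pla2g4e*, or 0.976 ± 0.203 CPM and 1.25 ± 0.400 CPM (SD, n = 3 each). The groups overlapped, and the log2 fold change of 0.36 (95% interval −0.47 to 1.19, edgeR adjusted p = 0.633) leaves room for a change in either direction. Per kilobase of exon, the level of *Ptgs2* over that of *Ptgs1* was 11.2, 7.24 and 10.6 in the shCtrl libraries and 37.9, 66.3 and 25.5 in the sh*Pla2g4e* libraries. COX-2 transcripts thus outnumbered COX-1 transcripts in every library, by a wider margin in sh*Pla2g4e*. The opposite strand carries another gene over 3.81% of the exon bases of *Ptgs1*, and the counting would not separate its reads.

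*Ptgs2* was also 1 of the known immediate early genes of neurons, and a list of 18 others was read beside it. At an adjusted p of 0.01, 5 of the 18 rose (*Fos*, *Fosb*, *Nr4a1*, *Dusp1* and *Inhba*, named here after their values were seen) and 0 fell, beside 2.48% and 4.00% of all genes tested. *Inhba* was not called by limma after voom (adjusted p = 0.0157) or DESeq2 (0.101), and its groups overlapped. *Dusp1*, a phosphatase of MAP kinases, went from 33.8 to 71.7 CPM. At 0.05, 8 rose and 2, *Egr1* and *Egr3*, fell, beside 5.55% and 7.31% of all genes tested, and with the replicate block, which called 15.5% of all genes, 9 rose and 3 fell at 0.01. The summed level of the list was 1366 to 1512 CPM in shCtrl and 1560 to 1694 CPM in sh*Pla2g4e*. The median log2 fold change of the list was 0.29, with 13 positive and 5 negative values. Their part in the *Ptgs2* result was not tested.

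The 5 genes whose log2 CPM followed that of *Ptgs2* most closely over the 6 libraries, of 10880 whose log2 CPM averaged 3 or more, were *Zfp260* (Pearson r 0.998), *Tvp23b* (0.997), *Tbrg1* (0.996), *Mapkapk3* (0.992) and *Scly* (0.991). These are the highest of 10880 correlations over 6 points that share the group difference, given as a description. Among them *Tvp23b* went from 28.7 to 40.1 CPM and *Mapkapk3*, a kinase downstream of p38, from 9.17 to 14.8 CPM, both past the threshold (adjusted p = 0.00434 and 0.00614), whereas the adjusted p of the other 3 was 0.0413 to 0.570.

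The synthases of prostaglandin E2 came next. *Ptges* encodes the membrane-bound synthase that is known to be induced together with COX-2. Its level was 3.49, 2.16 and 2.31 CPM in shCtrl and 5.02, 3.51 and 4.00 CPM in sh*Pla2g4e*. All 3 sh*Pla2g4e* values lay above the shCtrl values, though the lowest exceeded the highest shCtrl value only narrowly. On the log2 scale the difference was 0.66 (SE 0.25, 95% interval 0.12 to 1.19), and the edgeR adjusted p of 0.104 missed the threshold, as it did with the replicate block (0.0229).

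*Ptges2*, a second membrane-associated synthase, showed 31.1, 33.8 and 29.9 CPM in shCtrl and 27.5, 27.2 and 25.4 CPM in sh*Pla2g4e*. It was the 1 member with lower values in sh*Pla2g4e*, and its groups did not overlap. Its log2 fold change of −0.24 (SE 0.10, 95% interval −0.45 to −0.04) did not pass the threshold, with an edgeR adjusted p of 0.119. *Ptges3*, the cytosolic synthase also known as the HSP90 co-chaperone p23, had 64.3, 64.9 and 65.0 CPM in shCtrl and 74.3, 74.3 and 68.8 CPM in sh*Pla2g4e*. Its values were higher in every sh*Pla2g4e* library, but by a log2 fold change of only 0.16 (SE 0.08, 95% interval −0.00 to 0.33, edgeR adjusted p = 0.199). Of the 50-base stretches of *Ptges3* transcripts, 19.6% also occur in 2 other genes, and how far this affects its count was not tested.

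*Ptges* and *Ptges2* are also the members whose 3′ UTR holds a match to the seed of the hairpin used, and the sites are shown for that reason. The guide strand of the hairpin, written 5′ to 3′ with its seed (bases 2 to 8) in capitals, and the windows around the matching letters GTGGCCA, in capitals, read:
sh2 guide: tTGGCCACcaccatcttcc
Ptges site: gaggcccagcaGTGGCCAgctccatgtgg
Ptges2 site 1: gaaagactgaaGTGGCCAcactcactagg
Ptges2 site 2: gctgccaccttGTGGCCAatttcaggttt

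Of the 10 members, 2 (20%) held a match in a 3′ UTR, beside 14.6% of the 15703 tested genes that have one annotated. *Ptgs2* and *Hpgd* held none in the 3′ UTR or the coding sequence. *Alox5*, *Alox12b* and *Ptger4* held 1 each in the coding sequence. *Ptges*, with 1 site, had higher values in sh*Pla2g4e*, and *Ptges2*, with 2 sites, lower values. Whether the guide acts on any of these transcripts was not tested.

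*Ptgds*, the synthase of prostaglandin D2, is abundant in oligodendrocytes and in the meninges, and counted few reads here. Its level was 1.70, 1.81 and 2.35 CPM in shCtrl and 1.59, 2.08 and 3.71 CPM in sh*Pla2g4e*. The groups overlapped, and the sh*Pla2g4e* group spread from below the lowest shCtrl library to above the highest. Between the group means the log2 fold change was 0.31 (95% interval −0.39 to 1.01, edgeR adjusted p = 0.621), and without sh*Pla2g4e* replicate 3 it turned to −0.10. None of the 9 markers of the oligodendrocyte lineage was called (summed level 537 to 599 CPM in shCtrl and 551 to 664 CPM in sh*Pla2g4e*), and none of the 9 leptomeningeal and fibroblast markers (39.2 to 43.7 and 38.4 to 51.2 CPM). At an adjusted p of 0.05 the count was also 0 in both lists, beside 5.55% of all genes tested called higher and 7.31% lower. With the replicate block, which called 15.5% of all genes, 1 oligodendrocyte marker of 9 fell and 2 leptomeningeal markers of 9, *Col1a1* and *Col1a2*, rose. In bulk RNA, fewer cells of a type and less RNA per cell cannot be told apart.

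*Ptger4* encodes EP4, a receptor of prostaglandin E2 that raises cyclic AMP. Its reads were 8, 19 and 16 in shCtrl and 27, 16 and 26 in sh*Pla2g4e*, or 0.685 ± 0.285 CPM and 1.12 ± 0.373 CPM (SD, n = 3 each). The groups overlapped, and the log2 fold change of 0.69 had a wide interval (−0.28 to 1.67, edgeR adjusted p = 0.382). A further limit is that 16.5% of its exon bases overlap *Ttc33* and a second gene on the other strand, whose reads the counting would not separate.

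*Hpgd* encodes 15-hydroxyprostaglandin dehydrogenase, the enzyme that starts the breakdown of prostaglandins. It is annotated as ENSMUSG00000031613.10 on the plus strand of chromosome 8 at 56747620 to 56774078 in GRCm39. Its promoter is shown as the second of the members that rose, and the window, chr8:56294302-56294601 of GRCm38.p6, plus strand, reads with its match in capitals:
Hpgd promoter: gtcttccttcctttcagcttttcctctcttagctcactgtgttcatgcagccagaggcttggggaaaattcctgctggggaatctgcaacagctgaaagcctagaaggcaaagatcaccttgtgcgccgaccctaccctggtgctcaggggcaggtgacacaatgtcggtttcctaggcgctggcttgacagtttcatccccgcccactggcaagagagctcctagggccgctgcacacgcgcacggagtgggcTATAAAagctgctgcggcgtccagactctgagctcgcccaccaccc

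The capitals are a TATA box match that begins 4 bases after the annotated start. The *Hpgd* window, 58% G and C, held none of the 3 motifs matched in the *Ptgs2* window. Elsewhere among the members, an E-box began 77 bases before the start of *Ptges2*, a half-site of the cAMP response element 11 bases after that of *Ptges3* and an AP-1 motif 35 bases before that of *Ptgds*, and the other 5 windows held no match.

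*Hpgd* counted 16, 38 and 27 reads in shCtrl, or 0.776, 1.91 and 1.20 CPM. In sh*Pla2g4e* it counted 129, 155 and 82 reads, or 5.40, 7.17 and 4.68 CPM. The groups lay far apart, the lowest sh*Pla2g4e* library being above the highest shCtrl library, and replicate 2 was the highest in both. The means were 1.30 ± 0.574 CPM and 5.75 ± 1.28 CPM (SD, n = 3 each), with ratios within the numbered pairs of 6.95, 3.75 and 3.91. This was a log2 fold change of 2.15 (SE 0.30, 95% interval 1.52 to 2.78, edgeR adjusted p = 1.68e-04), the 282nd smallest p of all genes tested. The call held under all 16 alternatives, where the log2 fold change ran from 1.89 to 2.53 and the adjusted p reached at most 0.00137. No exon base overlapped another gene, and no 50-base stretch occurred elsewhere.

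**Figure D2:**
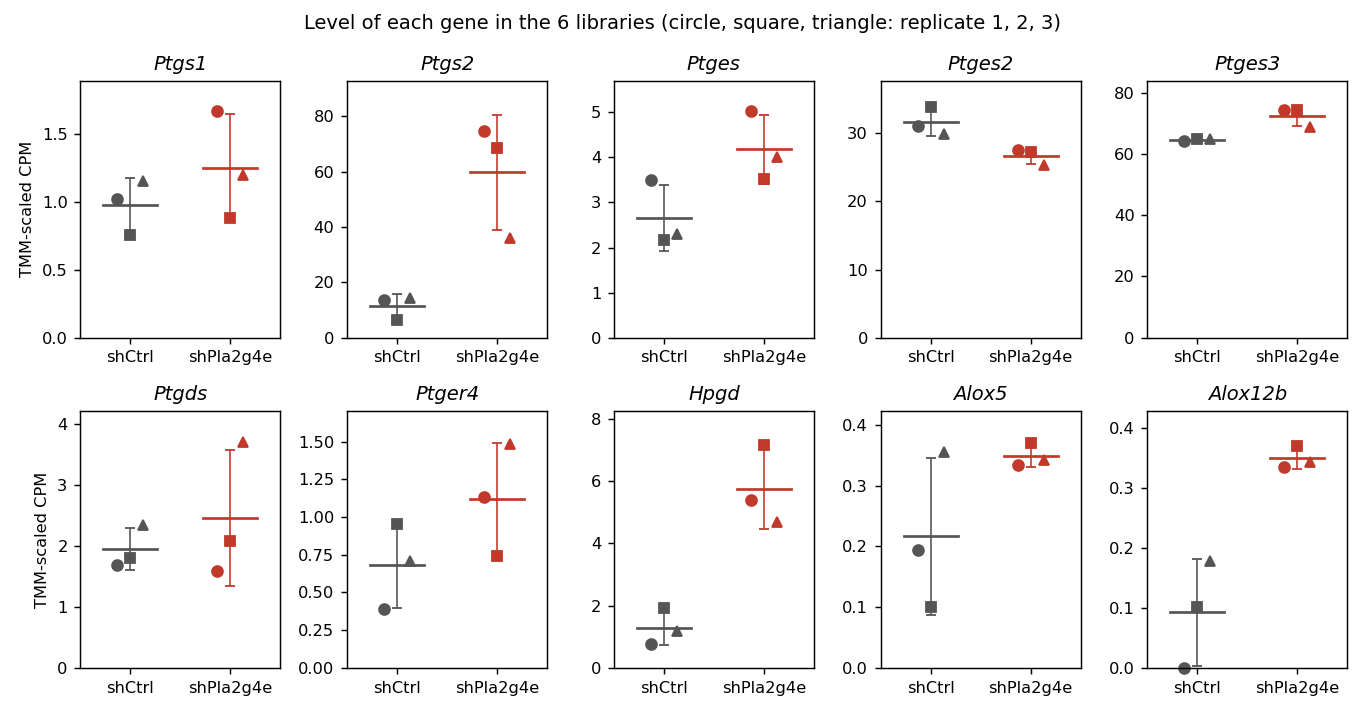
Each panel plots the level of 1 member in TMM-scaled CPM (y axis, from 0) in the 3 shCtrl and the 3 sh*Pla2g4e* libraries, with symbols for the replicate number, a line for the mean and bars for the SD. The sh*Pla2g4e* libraries of *Ptgs2* (36.1 to 74.7 CPM) and *Hpgd* (4.68 to 7.17 CPM) stand clear of the shCtrl libraries (6.44 to 14.4 and 0.776 to 1.91 CPM), while *Ptgs1*, *Ptgds*, *Ptger4* and *Alox5* overlap between the groups.

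The lipoxygenases among the members were close to the limit of detection. *Alox5*, the enzyme that starts leukotriene synthesis, counted 4, 2 and 8 reads in shCtrl and 8, 8 and 6 in sh*Pla2g4e* (log2 fold change 0.66, 95% interval −1.02 to 2.33, edgeR adjusted p = 0.672). *Alox12b*, best known as a lipoxygenase of the skin barrier, counted 0, 2 and 4 reads in shCtrl and 8, 8 and 6 in sh*Pla2g4e*. Its groups did not overlap, but it passed the filter through the sh*Pla2g4e* libraries alone, and the interval of its log2 fold change of 1.83 ran from −0.36 to 4.01 (edgeR adjusted p = 0.292), and the 0 in shCtrl replicate 1 allows up to 0.146 CPM, the worth of 3 reads. DESeq2 gave neither gene an adjusted p. Not all genes of this family were so low, as *Aloxe3*, a lipoxygenase outside the 10, counted 154 to 251 reads per library (group means 9.33 and 9.51 CPM, edgeR adjusted p = 0.928). Another, *Alox8*, counted 34, 16 and 43 reads in shCtrl and 14, 10 and 16 in sh*Pla2g4e*. Its groups overlapped, and its log2 fold change of −1.17 (95% interval −2.11 to −0.23, edgeR adjusted p = 0.0998) did not pass the threshold. The counting record holds no option for read pairs, and of all counts from 1 to 10 in a library 66.9% to 68.2% were even. Fewer fragments than reads may therefore lie behind these values, and the bound given for a count of 0 would then be higher.

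*Ptgs1* and *Alox5* are known from microglia in the brain, and markers of these cells were read beside them. Of 11 microglial markers, 9 were tested and 0 were called at an adjusted p of 0.01 or of 0.05, with a summed level of 6.55 to 15.9 CPM in shCtrl and 3.98 to 8.46 CPM in sh*Pla2g4e*. The 2 groups of libraries overlapped in that sum. Of the 9 tested, 2 had positive and 7 negative values (median log2 fold change −0.70). The reads of single markers in a library ran from 0 to 84, the highest being of *C1qc* and the lowest markers being *Tmem119* and *Itgam*, each with at most 4. Of 5 endothelial markers, none was called and *Cldn5* was at 0 in every library (summed level 2.06 to 2.52 and 2.64 to 3.64 CPM). Of 8 astrocyte markers, 3 fell and 0 rose, with a summed level of 2826 to 3630 CPM in shCtrl and 1899 to 3082 CPM in sh*Pla2g4e*. Of the 8 pan-neuronal markers 2 fell, and of the 7 glutamatergic markers 2 fell and 1 rose, beside 6.49% of all genes tested called in either direction. DESeq2 did not call *Slc17a6*, the glutamatergic marker that rose (adjusted p = 0.0425), or the astrocyte marker *Aqp4* (0.0124), and it kept the other calls among these markers. With the replicate block, which called 15.5% of all genes, 1 microglial marker fell, 6 astrocyte markers fell and 1 rose, and 3 pan-neuronal markers fell and 1 rose. The same block gave 3 glutamatergic markers that fell and 1 that rose, and none of the endothelial markers. The part of any of these cell types in the levels of the members was not tested.

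Per kilobase of exon, the shCtrl levels of the members spanned from 29.2 CPM for *Ptges3* to 0.0382 CPM for *Alox12b*. *Ptges3* was followed by *Ptges2* (6.25), *Ptgs2* (2.50), *Ptgds* (1.19), *Hpgd* (0.770), *Ptges* (0.675), *Ptgs1* (0.251), *Ptger4* (0.103) and *Alox5* (0.0528). Neighbours from *Ptgs2* to *Ptges* overlapped in their shCtrl libraries, as did those from *Ptger4* to *Alox12b*, so that their order there is not larger than the spread. In sh*Pla2g4e*, *Ptgs2* reached 7.88 to 16.3 CPM per kilobase, above *Ptges2* at 5.02 to 5.43, and *Hpgd* reached 2.78 to 4.26, above *Ptgds* at 0.964 to 2.25.

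**Figure D3:**
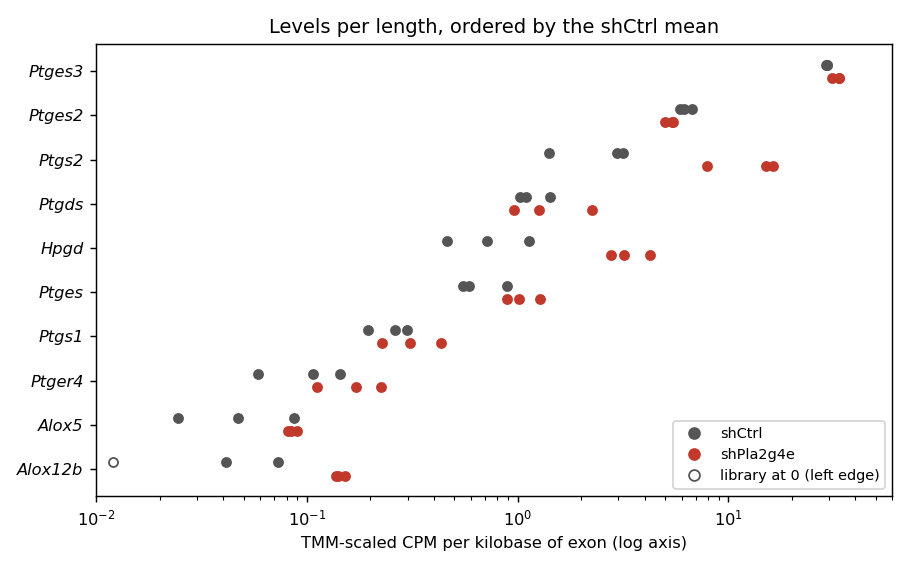
Levels in TMM-scaled CPM per kilobase of exon (x axis, log scale) are plotted for each member, 1 point per library, with shCtrl above and sh*Pla2g4e* below on each line and the shCtrl library of *Alox12b* at 0 drawn open at the left edge. *Ptgs2* passes from the third place of the shCtrl order to the second in sh*Pla2g4e*, with *Ptges3* at 31.0 to 33.5 above it.

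Other genes of eicosanoid metabolism were read from a list of 45, of which 36 were tested and 19 averaged under 10 reads per library in both groups. Of the 36, 0 rose past the threshold, beside 2.48% of all genes tested, and 2 fell, *Cyp2j9* and *Ephx2*, beside 4.00%. Of the 36, 4 reached 6 reads in sh*Pla2g4e* libraries alone (*Ptger2*, *Ptgdr2*, *Ptgir* and *Dpep1*) and 2 in shCtrl libraries alone (*Alox12* and *Ggt5*), which favours the sign of their differences. Over the 25 that reached 6 reads in both groups and were not too low to judge, the median log2 fold change was 0.03, with 13 positive and 12 negative values. *Cyp2j9*, a cytochrome P450 of a family that makes epoxides of arachidonic acid, had 9.31, 11.9 and 15.8 CPM in shCtrl and 6.82, 4.90 and 7.20 CPM in sh*Pla2g4e* (log2 fold change −0.97, SE 0.20, edgeR adjusted p = 0.00390). *Ephx2*, the soluble epoxide hydrolase that breaks such epoxides down, had 9.17, 14.3 and 8.57 CPM in shCtrl and 5.98, 5.41 and 6.34 CPM in sh*Pla2g4e* (log2 fold change −0.85, SE 0.19, edgeR adjusted p = 0.00805). Both had groups that did not overlap, but both calls were near the threshold: without shCtrl replicate 2, sh*Pla2g4e* replicate 1 or sh*Pla2g4e* replicate 2 neither was called, and without shCtrl replicate 1 or shCtrl replicate 3 only 1 of them was.

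The 3 most abundant of the uncalled genes on the list were *Ephx1*, the microsomal epoxide hydrolase, at 119 and 142 CPM (shCtrl and sh*Pla2g4e* means, adjusted p = 0.142), *Lta4h*, which makes leukotriene B4, at 63.9 and 68.4 CPM (0.558), and *Mgst3*, a glutathione transferase, at 60.4 and 59.4 CPM (0.912). With the replicate block 5 of the 36 genes were called, a share near the 15.5% of all genes tested that the block called, with *Ephx1* (adjusted p = 0.00988) and the prostaglandin F synthase gene *Fam213b* (0.00402) higher and the EP3 receptor gene *Ptger3* (0.00143) lower besides *Cyp2j9* and *Ephx2*. *Ptger3*, which had the highest mean level per kilobase of the genes for prostaglandin E2 receptors in both groups, had 17.5, 15.4 and 14.9 CPM in shCtrl and 12.1, 12.1 and 9.94 CPM in sh*Pla2g4e*. Its groups did not overlap, and its log2 fold change of −0.48 (SE 0.13, adjusted p = 0.0253 without the block) missed the threshold of 0.01. *Ptger2*, which encodes the EP2 receptor, counted 1, 3 and 0 reads in shCtrl and 18, 4 and 9 in sh*Pla2g4e* (adjusted p = 0.0912). *Aloxe3*, *Alox8*, *Fam213b*, *Ptger3*, *Ptger2* and the genes that passed the filter in 1 group alone were named after their values were seen. *Cysltr1*, *Cysltr2*, *Dpep2* and *Dpep3*, which belong to the cysteinyl leukotriene branch, were at 0 in all 6 libraries. With each read taken as independent this allows up to 0.125 to 0.171 CPM per library, and more if reads were counted in pairs.

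**Figure D4:**
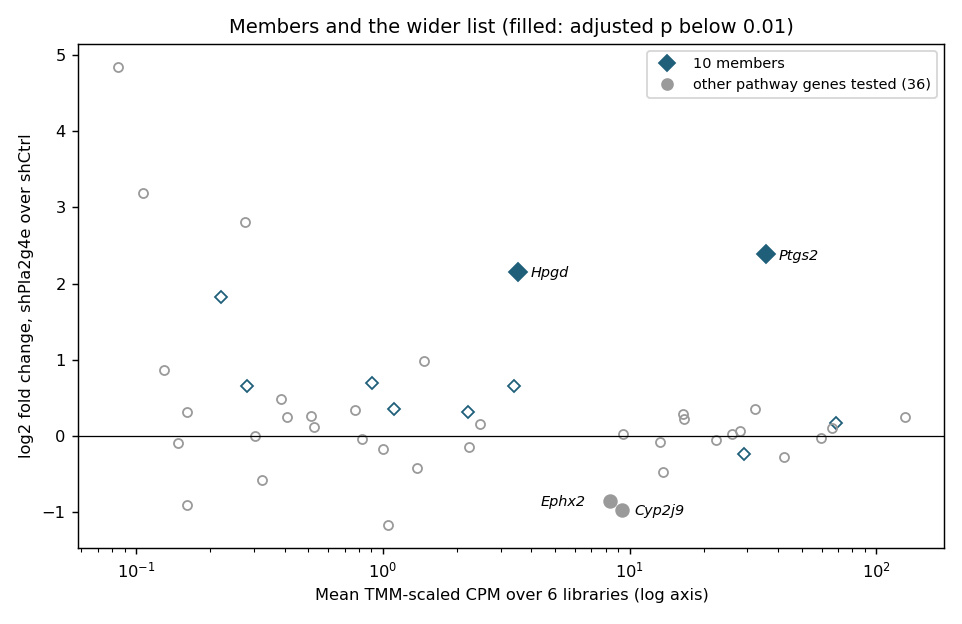
The log2 fold change of sh*Pla2g4e* over shCtrl (y axis) is plotted against the mean TMM-scaled CPM over the 6 libraries (x axis, log scale) for the 10 members (diamonds) and the 36 other pathway genes tested (circles), with filled symbols for an adjusted p below 0.01. *Ptgs2* and *Hpgd* are the filled symbols above 0, *Cyp2j9* and *Ephx2* those below it, and large positive values at the left belong to genes with few reads.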

How the data were processed

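RNA was measured in 6 libraries (3 shCtrl, 3 sh*Pla2g4e*) made with a stranded poly(A) kit. The authors aligned reads with STAR 2.7.0d, counted those on exons with featureCounts 1.6.0 and deposited raw read counts per gene, not normalized. Per the file headers, the counting used GENCODE M28 (GRCm39) with no option for strand or read pairs, whereas the methods name an older build. Symbols came from GENCODE vM21 through gene identifiers, which matched for 52081 of 55357 genes. No pair of libraries differed by less than the sampling noise (chi-square per gene 6.03 to 38.0).

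The groups were compared with the quasi-likelihood test of edgeR 4.0.16 (R 4.3.3, TMM scaling, no covariates) in the 21876 genes that reached 6 reads in 1 library or more, with Benjamini-Hochberg adjustment over all of them and a threshold of 0.01, the filter and threshold of the study. The 95% intervals and SE came from the F statistic. The study's test, limma after voom (limma 3.58.1), DESeq2 1.42.0, other scalings, filters and fits, a replicate block and leaving out each library were the alternatives. The scripts were tested on simulated data.

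Over 11018 genes, the deviations of same-numbered libraries from their group means had correlations of 0.393, 0.188 and 0.460, against −0.392 to 0.106 for other combinations. Deviations within a group cancel, so that these correlations depend on one another, and the value for number 2 is not far above the others. On this ground the numbers served as pairs in the replicate block, an alternative. The main test leaves them out.

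The members and lists were chosen with earlier results of these data known. The genes named are all members, the called and the 3 most abundant other genes of the wider list, and the 5 closest to *Ptgs2*. The rule also took the 2 most abundant markers of each cell type list, which are left out by name except where a result touches them, and 1 marker of these lists is not reported here. Exon overlaps were taken on the GENCODE M28 (GRCm39) coordinates of the counting. The 3′ UTRs, coding sequences and shared 50-base stretches came from GENCODE vM21 (GRCm38). Promoter windows of 300 bases, the last 50 of them transcribed, came from RefSeq (GRCm38.p6), where all 10 members matched. The hairpin is the sequence that the study lists.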

Additional observations from a re-analysis of the deposited data

How the results depend on the processing

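The 2 calls among the members held in all alternatives except the robust fit, which called 1, since *Ptgs2* had an adjusted p of 0.0415 there. The replicate block changed no call of a member (2 called, as in the fit without it). Of members not called, *Ptgds* (0.31) ranged from −0.097 without sh*Pla2g4e* replicate 3 to 0.554 without sh*Pla2g4e* replicate 1, and the log2 fold changes of the others kept their direction. Of the wider list, 2 genes were called as reported, 5 with the replicate block, and 1 each with limma after voom, upper-quartile scaling, library size alone, at least 10 reads in every library and filterByExpr, where *Ephx2* was the gene not called. Leaving out 1 library gave 0 to 2. The log2 fold change of *Mgst3*, −0.02 as reported, turned to 0.0103 with upper-quartile scaling and 0.0483 with library size alone, and ranged from −0.0799 to 0.0691 with 1 library left out. Causes were not tested. Over all genes, 1419 were called, 3395 with the replicate block and 2349 without a filter, and leaving out 1 library gave 695 to 1613. Of the calls, 61.7% were lower in sh*Pla2g4e* with TMM, 53.2% with upper-quartile scaling and 43.3% with library size alone. Without length, *Ptges* moved from place 6 to 4 in the order of shCtrl levels, *Ptgds* from 4 to 5 and *Hpgd* from 5 to 6. At these depths a gene with under 10 reads per library could not be judged.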
